A study of Mus musculus with 6 samples.

Results

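The Slc25 genes encode the mitochondrial carrier family, and their transcript levels were compared between hearts with and without a cardiomyocyte deletion of Mrps5, a protein of the small subunit of the mitochondrial ribosome. Members were all protein-coding genes of the deposited embryonic heart table whose symbol starts with Slc25a followed by a digit, with the transcripts of each gene summed. The rule gave 47 genes with 121 transcripts, out of 26191 genes in all. Hearts were collected at embryonic day 12 from control Mrps5 fl/fl embryos (3 libraries) and mutant Mrps5 fl/fl; cTNT-Cre littermates (3 libraries), each library made from pooled hearts. By the labels and the paper's main text, both groups carry the floxed alleles on both chromosomes. A supplementary legend of the paper for this sequencing instead writes the mutants as fl/+ with cTnT-Cre, and the difference is not resolved here. Only the mutants carry the Cre transgene, which is driven by the promoter of the cardiac troponin T gene and directed to cardiomyocytes. The effect of Cre itself and of the Mrps5 deletion therefore cannot be told apart, and other cell types of the heart are meant to keep Mrps5.

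Mitochondrial carriers are small proteins that span the inner membrane and exchange substrates between the cytosol and the matrix. They move ADP, ATP and phosphate for ATP synthesis, carboxylates and amino acids for the citric acid cycle and the redox shuttles, and cofactors, nucleotides, acylcarnitines and iron for the enzymes of the matrix. In the heart the adenine nucleotide carriers link ATP production to contraction, and in developing red cells the iron and glycine carriers feed heme synthesis.

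The unit of the table is FPKM, fragments mapped to a transcript, scaled to its length and to the size of the library, and read depth cannot be read from it. Mrps5 itself stood at 9.65, 11.4 and 10.4 FPKM in control replicates 1, 2 and 3 and at 5.28, 7.41 and 10.4 FPKM in the mutants, so that the library labelled mutant replicate 3 was at the control level. The difference in Mrps5 did not pass (log2 fold change -0.44, SE 0.19, limma adjusted p = 0.338). Markers of red cells (18 genes, globins included) took 12.3, 13.4 and 12.0% of all FPKM in the controls and 23.5, 10.9 and 22.1% in mutant replicates 1, 2 and 3. Of these 18 markers, 15 were above every control in both mutant replicates 1 and 3, and none of the 18 was above every control in mutant replicate 2. Markers of cardiomyocytes, all 15 of which were present, took 2.97, 2.62 and 3.14% in the controls and 1.92, 2.38 and 2.34% in the mutants, with 11 of 15 lower in every mutant than in every control. Endothelial, epicardial, mesenchymal and macrophage markers were summed as well, and their totals moved less than those of red cells (254 and 248 FPKM for endothelial markers, 182 and 211 for epicardial, 403 and 424 for mesenchymal, 26.2 and 20.8 for macrophage, control and mutant means).

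The family spanned a wide range of levels, with 4 members at a mean of 100 FPKM or more, 12 between 10 and 100, 19 between 1 and 10, and 10 below 1 but above 0. The other 2, Slc25a41 and Slc25a54, were listed at 0 in all 6 libraries. The ADP/ATP carriers Slc25a4 and Slc25a5 and the phosphate carrier Slc25a3 made up 61.8% ± 0.534 of the members' summed FPKM in the controls (SD, n = 3) and 56.7% ± 4.30 in the mutants (SD, n = 3). The share was 53.6, 61.7 and 55.0% in mutant replicates 1 to 3, so mutant replicate 2 was at the control level. The lower shares were those of mutant replicates 1 and 3, in which Slc25a37 and the red cell markers' share of FPKM were high. The part of the latter in the lower shares was not tested. All members together took 0.292% ± 0.0100 of all FPKM in the controls and 0.289% ± 0.0236 in the mutants (SD, n = 3 each), so the summed share differed by less than its spread. Several abundant carriers lie beside a nearly silent one in the RefSeq gene order of GRCm38.p6, with no protein-coding gene between them. Slc25a5 (mean 301 FPKM) adjoins Slc25a43 (0.654), Slc25a24 (22.0) adjoins Slc25a54 (0), and Slc25a23 (10.4) adjoins Slc25a41 (0).

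**Figure D1:**
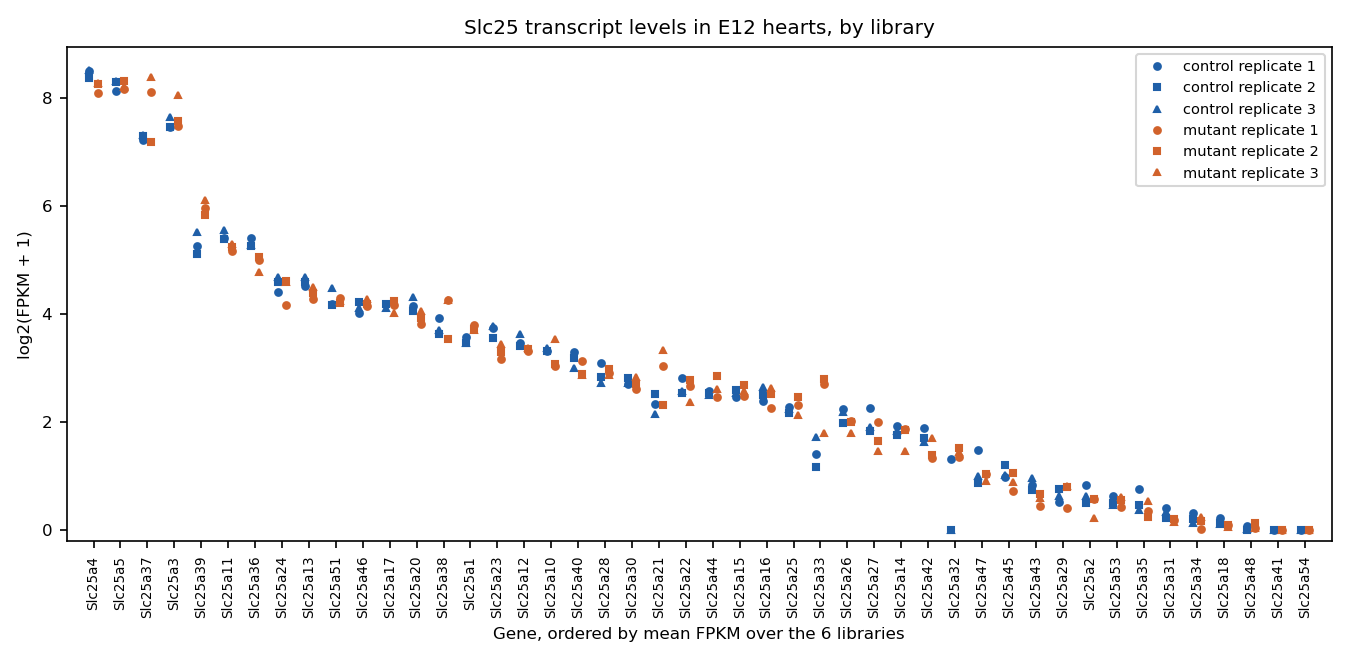
Levels of 46 Slc25 genes as log2(FPKM + 1) on the vertical axis, one point per library (blue control, orange mutant, symbol for the replicate), ordered by mean FPKM. Slc25a4, Slc25a5, Slc25a37 and Slc25a3 stand above the others, and mutant replicates 1 and 3 lie apart from the other libraries at Slc25a37.

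Of the 47 members, 36 passed the filter of at least 1 FPKM in at least 3 of 6 libraries and were tested. Adjusted p-values come from limma with Benjamini-Hochberg adjustment over all genes tested, and members below the unadjusted line are those with an unadjusted p under 0.05. No member had an adjusted p below 0.05, against 0.083% of the 13260 genes tested (11 genes). At an unadjusted p below 0.05, 6 members were higher and 6 lower in the mutants, where 5.57% of all genes were higher and 9.43% lower, 15% in all (1990 genes). The values of the groups did not overlap for 4 members that were higher and 6 that were lower. For all genes tested, the groups did not overlap for 20.8%, 7.74% being higher and 13% lower. The median log2 fold change of the 36 members was -0.04 (range -0.38 to 1.01), beside -0.02 over all genes. The balance of all genes at the unadjusted line moved with the scaling, from 739 higher and 1251 lower to 365 and 1627 when each library was scaled to the same FPKM sum, and to 967 and 1053 when red cell markers were left out of that sum. The 11 members left out by the filter stayed below 1 FPKM on average (Slc25a2, Slc25a18, Slc25a29, Slc25a31, Slc25a34, Slc25a35, Slc25a41, Slc25a43, Slc25a48, Slc25a53 and Slc25a54).

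**Figure D2:**
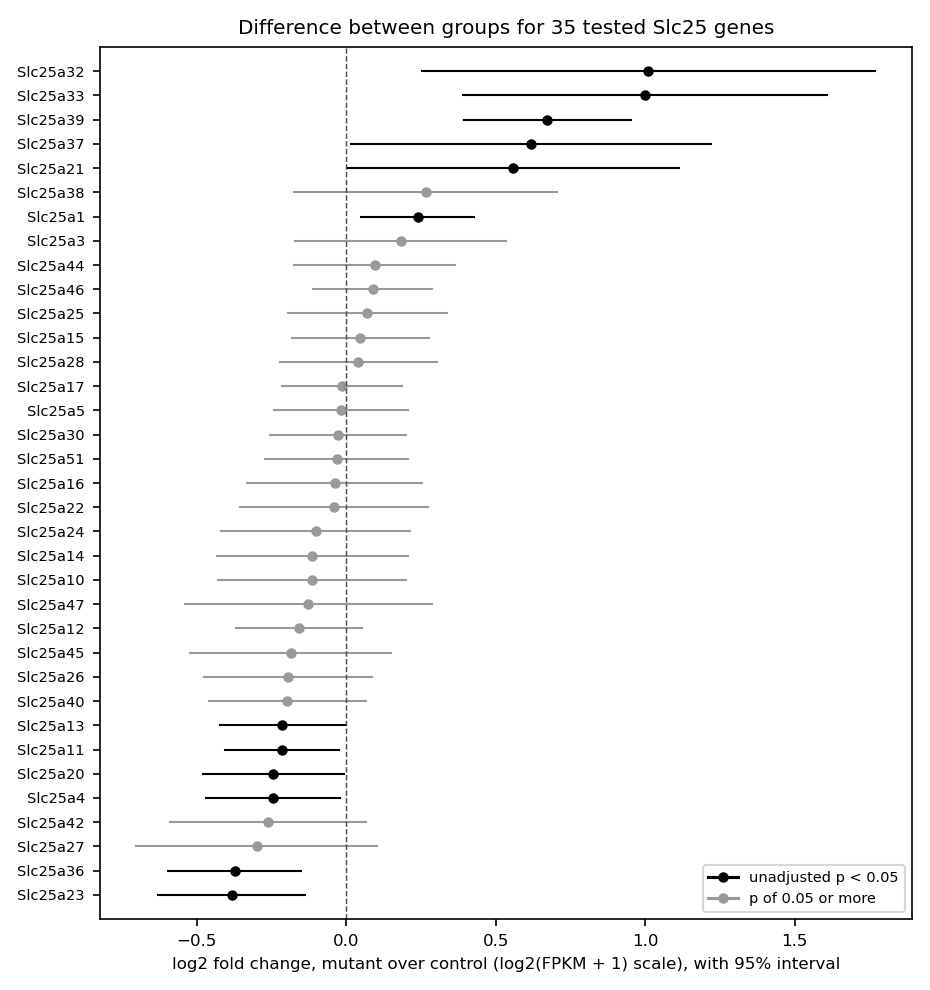
Log2 fold change of mutant over control for 35 tested Slc25 genes on the log2(FPKM + 1) scale (points) with 95% intervals from limma (lines), black where the unadjusted p is below 0.05 (6 higher, 6 lower). The widest intervals among the black genes are those of Slc25a32, Slc25a33, Slc25a37 and Slc25a21.

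The pair with the plainest contrast was that of the pyrimidine nucleotide carriers, Slc25a33 and Slc25a36, which bring pyrimidine nucleotides into the matrix where mitochondrial DNA and RNA are made. Slc25a33 (ENSMUSG00000028982) stood at 1.67, 1.26 and 2.32 FPKM in control replicates 1 to 3 and at 5.57, 5.94 and 2.51 in mutant replicates 1 to 3. The first and second mutants were far above the controls, whereas mutant replicate 3, with Mrps5 at the control level, lay just above the highest control. The log2 fold change was 1.00 (SE 0.27, adjusted p = 0.169) and, without mutant replicate 3, 1.32 (adjusted p = 0.0075), a fit that leaves out the mutant nearest to the controls and in which 270 of all genes passed the adjusted line, against 11 with all libraries. Slc25a36 (ENSMUSG00000032449), the more abundant of the pair in every library, differed in the opposite direction, with 41.5, 37.5 and 37.9 FPKM in controls against 31.0, 32.2 and 26.5 in mutants. All mutants lay below all controls, with the lowest value in mutant replicate 3 (log2 fold change -0.37, SE 0.10, adjusted p = 0.166). Without that library its log2 fold change was -0.29 (adjusted p = 0.192). Both main transcripts of Slc25a36 were lower, ENSMUST00000085206 at a mean of 23.6 FPKM in controls and 19.3 in mutants and ENSMUST00000124250 at 15.3 and 10.6. Setting the pair side by side was a choice made after their values were seen, and the difference between them was not tested.

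Because these carriers of like substrates differed in opposite directions, the stretch upstream of each start is shown, taken from RefSeq promoters of GRCm38.p6. Each holds 250 bases that end just before the annotated start and run in the direction of the gene, with the palindromic E-box CACGTG in capitals. For Slc25a33 the stretch is chr4:149774268-149774517 on the minus strand, and for Slc25a36 it is chr9:97111042-97111291, also on the minus strand.
Slc25a33: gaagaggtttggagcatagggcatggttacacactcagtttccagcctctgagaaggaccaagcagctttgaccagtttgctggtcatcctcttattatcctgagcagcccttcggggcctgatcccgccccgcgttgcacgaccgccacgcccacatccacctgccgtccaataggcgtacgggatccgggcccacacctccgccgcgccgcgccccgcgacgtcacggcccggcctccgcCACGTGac
Slc25a36: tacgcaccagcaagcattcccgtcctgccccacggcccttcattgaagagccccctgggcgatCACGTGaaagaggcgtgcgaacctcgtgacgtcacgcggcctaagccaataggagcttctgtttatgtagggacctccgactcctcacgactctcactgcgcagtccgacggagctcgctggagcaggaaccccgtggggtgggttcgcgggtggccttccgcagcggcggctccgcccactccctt
The E-box, a palindrome that reads alike on both strands, began 8 bases before the start in Slc25a33 and 187 bases before it in Slc25a36. Over promoters of 300 bases (250 before the start and 50 after it) it occurred in 7.15% of the 32851 listed. Percentages here count promoters, whereas a member counts once if any of its promoters held the motif, so the rates are of unlike units. Of the 36 members with a promoter listed, 7 held the E-box, and of the 10 with a promoter among those at an unadjusted p below 0.05, 4 did. These were Slc25a1 and Slc25a33, which were higher, and Slc25a13 and Slc25a36, which were lower, so the same letters stood before genes of both directions. The amino acid response element TGATGNAA, searched on both strands like all other motifs here, occurred in 3.97% of promoters. The GATA motif AGATAA occurred in 11.2%. The estrogen-related receptor motif AAGGTCA occurred in 4.72%, and the NRF1 motif in 4.6%. The promoters of those 10 members held none of these other motifs. The motifs were chosen after the expression values were seen, and a match is a description of the letters only.

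Among the carriers of adenine nucleotides and phosphate, 8 of 11 members were tested, with 0 higher and 2 lower at the unadjusted line and a median log2 fold change of -0.06. Over all genes tested, 5.57% were higher and 9.43% lower at that line. The role groups are too small for their counts to be read as results about them. Slc25a4 (ENSMUSG00000031633), the ADP/ATP carrier of heart and muscle, was the most abundant member, at 360, 328 and 366 FPKM in the controls and 273, 307 and 309 in the mutants. All mutants lay below all controls (log2 fold change -0.25, SE 0.10, adjusted p = 0.301), and the mean was 0.844 of that of the controls. Beside it, the summed FPKM of the cardiomyocyte markers was 13513 ± 1246 in the controls and 10881 ± 964 in the mutants (SD, n = 3 each), and its part in the lower Slc25a4 was not tested. Fewer cells of a type and less RNA per cell cannot be told apart in these whole hearts. Slc25a5, the ADP/ATP carrier of proliferating and non-muscle cells, stood at 278, 313 and 319 FPKM in the controls and 286, 317 and 295 in the mutants. Its groups overlapped throughout, and the interval of its log2 fold change ran from -0.24 to 0.21 (estimate -0.02).

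The ratio of Slc25a4 to Slc25a5 within a library does not depend on how libraries are scaled. On the log2 scale it was 0.37, 0.07 and 0.20 in the controls and -0.06, -0.05 and 0.07 in the mutants, so that the highest mutant was just below the lowest control. The difference of the means was -0.23 (exact two-sided permutation p = 0.1, the smallest that 3 against 3 libraries can give, adjusted p = 0.3 over the 3 ratios tested). Without control replicate 1 it was -0.15. Sequence shared between these close paralogs and with processed copies of Slc25a5 may be assigned to either, so their split rests on the authors' transcript estimates.

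Slc25a23 (ENSMUSG00000046329), a calcium-regulated carrier of ATP-Mg and phosphate, had the most negative log2 fold change of the 36 members tested, in the fit of all libraries. Slc25a36 (-0.37) was close to it, and was the lower of these with a pseudocount of 5 (-0.34 against -0.28). Slc25a23 stood at 12.4, 10.7 and 12.7 FPKM in the controls and 7.98, 8.90 and 9.89 in the mutants, without overlap (log2 fold change -0.38, SE 0.11, adjusted p = 0.180). Its relatives with the same kind of substrate, Slc25a24 (estimate -0.10, adjusted p = 0.775) and Slc25a25 (0.07, adjusted p = 0.82), did not pass, and each had overlapping groups. The phosphate carrier Slc25a3 stood at 176, 175 and 199 FPKM in the controls and 177, 190 and 266 in the mutants. Only mutant replicate 3 was above the controls, and there 155 FPKM was assigned to ENSMUST00000170810, a transcript at 75.6 to 102 FPKM in the other 5 libraries (gene estimate 0.18, adjusted p = 0.62). The remaining members tested in the group, Slc25a17 and Slc25a42, gave estimates of -0.01 (adjusted p = 0.958) and -0.26 (adjusted p = 0.429).

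Of the 4 carriers of di- and tricarboxylates, 2 were higher and 1 lower at the unadjusted line, where 5.57% of all genes were higher and 9.43% lower. Slc25a1 (ENSMUSG00000003528), which exports citrate to the cytosol for lipid synthesis, stood at 10.9, 10.1 and 10.1 FPKM in the controls and 12.9, 12.3 and 12.0 in the mutants. All mutants lay above all controls by a narrow margin (log2 fold change 0.24, SE 0.08, adjusted p = 0.249), and the estimate was 0.16 (adjusted p = 0.587) when libraries were scaled to the same FPKM sum. Slc25a11 (ENSMUSG00000014606), the oxoglutarate/malate carrier of the malate-aspartate shuttle, stood at 41.7, 40.9 and 45.9 FPKM in the controls and 34.9, 36.9 and 38.3 in the mutants, again without overlap. Its log2 fold change was -0.22 (SE 0.08, adjusted p = 0.286). The dicarboxylate carrier Slc25a10 gave -0.12 (adjusted p = 0.74), with mutant replicate 3, at 10.6 FPKM, above the controls and the other mutants, at 7.26 and 7.42, below them. Without mutant replicate 3 its estimate was -0.28 (below the unadjusted line, adjusted p = 0.22).

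The malate-aspartate shuttle pairs Slc25a11 with the aspartate/glutamate carriers, and both of these were lower in every mutant as well. Over all genes tested, 13% were lower without overlap. Of the 15 cardiomyocyte markers 11 were lower in every mutant too, and their part in these carriers was not tested. With the red cell covariate Slc25a11 gave -0.20 (adjusted p = 0.558) and Slc25a13 -0.21 (adjusted p = 0.575), neither below the unadjusted line. Slc25a13 (ENSMUSG00000015112) stood at 22.1, 23.3 and 24.8 FPKM in the controls and 18.5, 19.9 and 21.8 in the mutants (log2 fold change -0.21, SE 0.09, adjusted p = 0.324). Slc25a12, the form of heart, muscle and brain, stood at 10.1, 9.60 and 11.4 FPKM in the controls and 8.94, 9.20 and 9.36 in the mutants, which did not pass (-0.16, SE 0.09, adjusted p = 0.458). For both genes the highest mutant was within 0.5 FPKM of the lowest control. The log2 ratio of Slc25a12 to Slc25a13 differed by 0.06 between the groups (exact two-sided permutation p = 0.4, smallest possible 0.1), less than its spread. In mutant replicate 3 the authors' estimates placed 19.8 FPKM of Slc25a13 on ENSMUST00000015256 and 2.00 on ENSMUST00000188414, whereas the other 5 libraries had at most 0.0459 on the former. These transcripts have similar lengths (3067 and 3121 bases in GENCODE M21), so the sum is little affected, but the value of either transcript alone is.

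Slc25a39 (ENSMUSG00000018677), which carries glutathione into the matrix, had the smallest p of the family. It stood at 37.5, 33.7 and 44.7 FPKM in the controls and 61.4, 56.1 and 68.3 in the mutants, with every mutant well above every control. The log2 fold change was 0.67 (SE 0.12, adjusted p = 0.0952), from 0.58 to 0.78 when any 1 library was left out, and 0.60 (still below the unadjusted line, adjusted p = 0.303) with the red cell marker level as a covariate. Mutant replicate 2, whose red cell marker share was below that of every control, was also above the controls.

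Most of the difference in Slc25a39 FPKM lay in 2 of its shorter annotated transcripts. The longest expressed form, ENSMUST00000018821 (1685 bases), stood at 28.4, 26.8 and 23.3 FPKM in the controls and 30.7, 24.0 and 33.5 in the mutants, with overlap (log2 fold change 0.15, adjusted p = 0.681). ENSMUST00000124755 (642 bases) stood at 0.0421, 0.0505 and 0.522 FPKM in the controls and 11.0, 15.9 and 6.87 in the mutants. ENSMUST00000155104 (977 bases) stood at 5.24, 2.03 and 16.9 FPKM in the controls and 16.6, 13.9 and 23.6 in the mutants. Other short transcripts did not share this: ENSMUST00000154001 (686 bases) had means of 1.28 FPKM in controls and 0.595 in mutants, ENSMUST00000128825 (728 bases) 1.70 and 1.42, and ENSMUST00000130436 (679 bases) 1.04 and 1.10. FPKM gives a short transcript more weight per fragment than a long one. With each transcript weighted by its length before summing, a choice made after seeing these values, Slc25a39 gave 0.46 (SE 0.12, adjusted p = 0.155), with the groups still apart.

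Its paralog Slc25a40, also linked to matrix glutathione, showed a shift between transcripts that the summed value hid. The gene gave -0.20 (SE 0.11, adjusted p = 0.454). ENSMUST00000066921 (2784 bases) was at 5.15, 4.57 and 4.42 FPKM in the controls and 1.98, 2.70 and 0.972 in the mutants. ENSMUST00000170496 (2602 bases) was at 2.83, 3.38 and 2.55 FPKM in the controls and 4.66, 3.54 and 4.81 in the mutants. Neither transcript had overlapping groups, and they differed in opposite directions, so the sign for the gene depends on which is counted. The second alone gave 0.44 (below the unadjusted line, adjusted p = 0.336). All transcripts of the gene, weighted by length and summed, gave -0.30 (below the unadjusted line, adjusted p = 0.271). That sum includes the short ENSMUST00000198792 (453 bases), at means of 0.376 FPKM in controls and 0.635 in mutants. This gene was singled out after its values were seen.

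**Figure D3:**
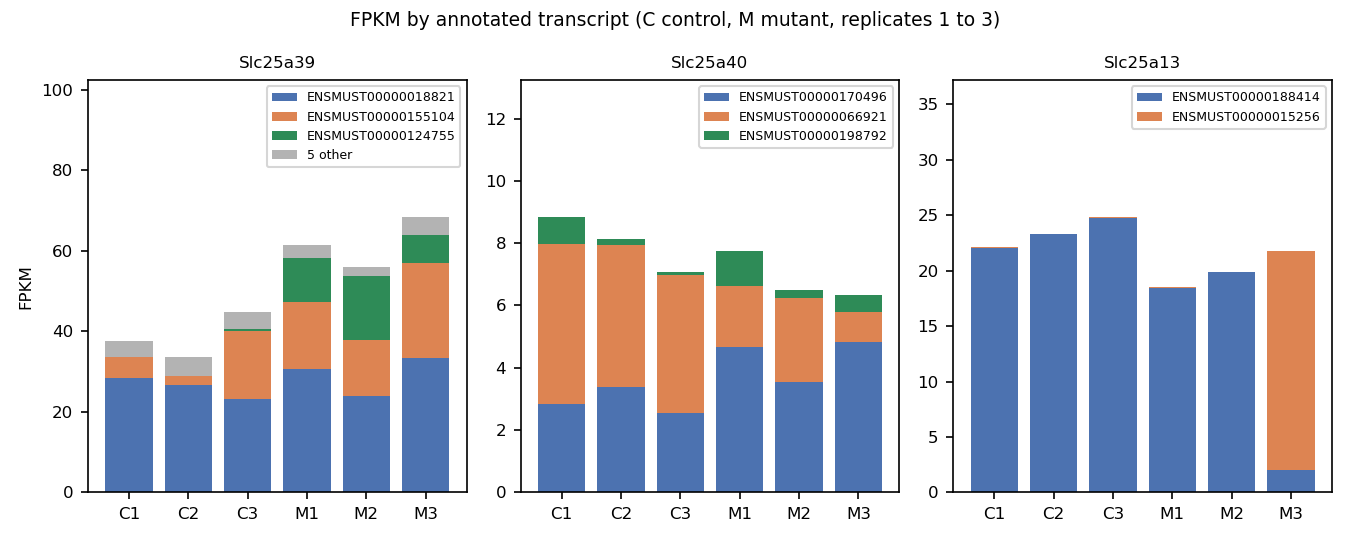
FPKM on the vertical axis stacked by annotated transcript for Slc25a39, Slc25a40 and Slc25a13 in each library (C control, M mutant, replicates 1 to 3). The green ENSMUST00000124755 segment of Slc25a39 is visible in the mutants and nearly absent in controls, and the Slc25a13 bar of mutant replicate 3 changes colour while its height stays near that of the other mutants.

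Within the amino acid and glutathione group 8 of 11 members were tested, with 1 higher (Slc25a39) and 1 lower (Slc25a13) at the unadjusted line. At that line 5.57% of all genes were higher and 9.43% lower. The ornithine carrier Slc25a15 (0.05, adjusted p = 0.863), the glutamate carrier Slc25a22 (-0.04, adjusted p = 0.919) and the branched-chain amino acid carrier Slc25a44 (0.09, adjusted p = 0.751) lay near 0 with overlapping groups. The glycine carrier Slc25a38, needed for the first step of heme synthesis, is described with the iron carriers.

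Among the 8 carriers of carnitine, cofactors and nucleotides, 2 were higher and 2 lower at the unadjusted line, the pyrimidine pair included. At that line 5.57% of all genes were higher and 9.43% lower. Slc25a20 (ENSMUSG00000032602), which exchanges acylcarnitines for carnitine so that fatty acids can be oxidised, stood at 16.9, 15.7 and 18.9 FPKM in the controls and 13.03, 14.3 and 15.7 in the mutants. The lowest control and the highest mutant were nearly level (log2 fold change -0.24, SE 0.10, adjusted p = 0.321). Slc25a32 (ENSMUSG00000022299), linked to folate and flavin transport, was listed at 1.49 FPKM in control replicate 1, at 0 in control replicates 2 and 3, and at 1.57, 1.88 and 1.74 in the mutants. Control replicate 1 was close to the mutants, and with 1 transcript in the table a listed 0 may be a failed estimate, so its test (adjusted p = 0.228) rests on those zeros. It also reached the filter of 1 FPKM in 3 libraries only with the mutants' values. Without it, 5 members were higher below the unadjusted line, 3 were higher without overlap, and 2 were higher with the red cell covariate, where over all 13260 genes the higher calls numbered 739, 1026 and 667. Without control replicate 2 or control replicate 3 it was no longer below the unadjusted line (adjusted p = 0.405 and adjusted p = 0.426). Slc25a16, Slc25a26 and Slc25a51, which carry coenzyme A, S-adenosylmethionine and NAD or are linked to them, had estimates from -0.19 to -0.03 and did not pass.

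The mitoferrins import iron for heme and iron-sulfur clusters, Slc25a37 in erythroid cells above all and Slc25a28 in most tissues. Slc25a37 (ENSMUSG00000034248) stood at 149, 157 and 157 FPKM in the controls and at 276, 145 and 333 in mutant replicates 1, 2 and 3. Mutant replicate 2 was below every control, and the other mutants were far above. The log2 fold change was 0.62 (SE 0.26, adjusted p = 0.322). Slc25a28 stood at 7.54, 6.14 and 5.63 FPKM in the controls and 6.51, 6.96 and 6.35 in the mutants, all mutants within the control range (0.04, adjusted p = 0.902). The log2 ratio of Slc25a37 to Slc25a28 differed by 0.58, with overlap (exact two-sided permutation p = 0.3, smallest possible 0.1).

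The same ordering of libraries was seen for 2 further tested members, and for no other of the 36. Slc25a38 stood at 14.2, 11.4 and 12.1 FPKM in the controls and 18.2, 10.7 and 18.2 in the mutants (0.27, adjusted p = 0.558). Slc25a21 (ENSMUSG00000035472), the oxodicarboxylate carrier of lysine breakdown, stood at 4.08, 4.76 and 3.46 FPKM in the controls and 7.28, 3.97 and 9.15 in the mutants (0.56, SE 0.24, adjusted p = 0.329). In all 3 genes mutant replicates 1 and 3, the libraries in which red cell markers took 23.5 and 22.1% of FPKM, were above every control, and mutant replicate 2, at 10.9%, was not. With the red cell marker level as a covariate the estimates were 0.13 (adjusted p = 0.771) for Slc25a37, 0.14 (adjusted p = 0.789) for Slc25a21 and -0.06 (adjusted p = 0.907) for Slc25a38. Without mutant replicate 2 they were 0.97, 0.85 and 0.50, and without mutant replicate 3 they were 0.38, 0.34 and 0.15. Without mutant replicate 1 Slc25a38 also gave 0.15. Slc25a33 did not follow this order and gave 1.24 with the covariate (still below the unadjusted line, adjusted p = 0.307).

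**Figure D4:**
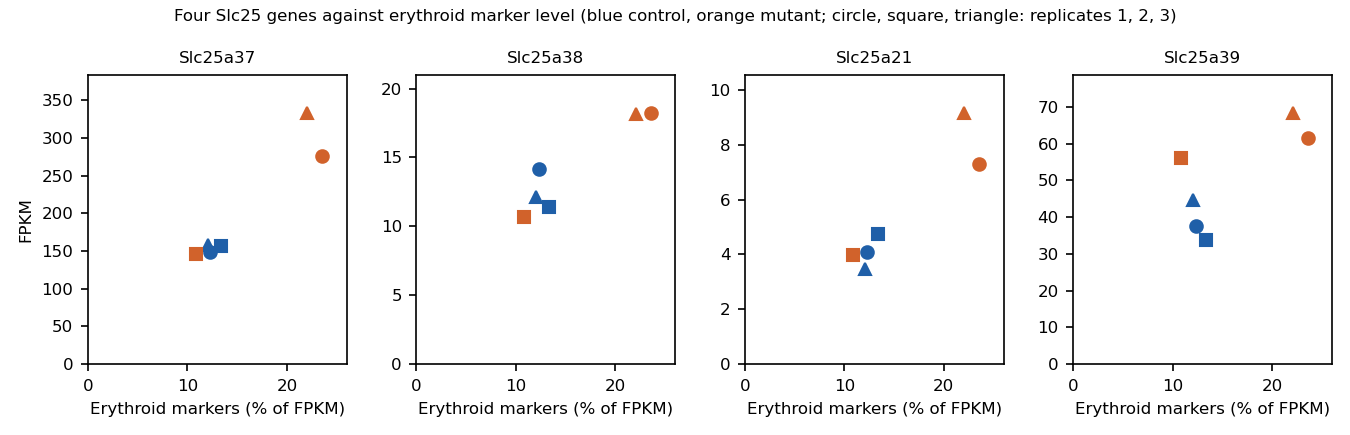
FPKM of Slc25a37, Slc25a38, Slc25a21 and Slc25a39 (vertical axes) against the share of all FPKM taken by 18 red cell markers (horizontal axis, percent), 1 point per library (blue control, orange mutant). For the first 3 genes mutant replicates 1 and 3 stand to the upper right. Mutant replicate 2 lies to the left of the controls and, for these 3 genes, not above the highest of them. For Slc25a39 all 3 mutants are above the controls.

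The relatives of the uncoupling proteins, Slc25a14, Slc25a27 and Slc25a30, had negative estimates from -0.30 to -0.03, and none passed. The estimate of Slc25a27, -0.30, ran from -0.45 without mutant replicate 1 to -0.17 without control replicate 1 (-0.18 without mutant replicate 3). It fell below the unadjusted line without mutant replicate 1 (adjusted p = 0.396) and with the replicate block (adjusted p = 0.273). Of 8 members of the outer membrane or without a settled substrate, 3 were tested and none passed. Slc25a46, an outer membrane protein that acts in mitochondrial shape, stood at 15.2, 17.6 and 16.4 FPKM in the controls and 16.9, 17.3 and 18.3 in the mutants, with overlap (0.09, adjusted p = 0.679).

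**Figure D5:**
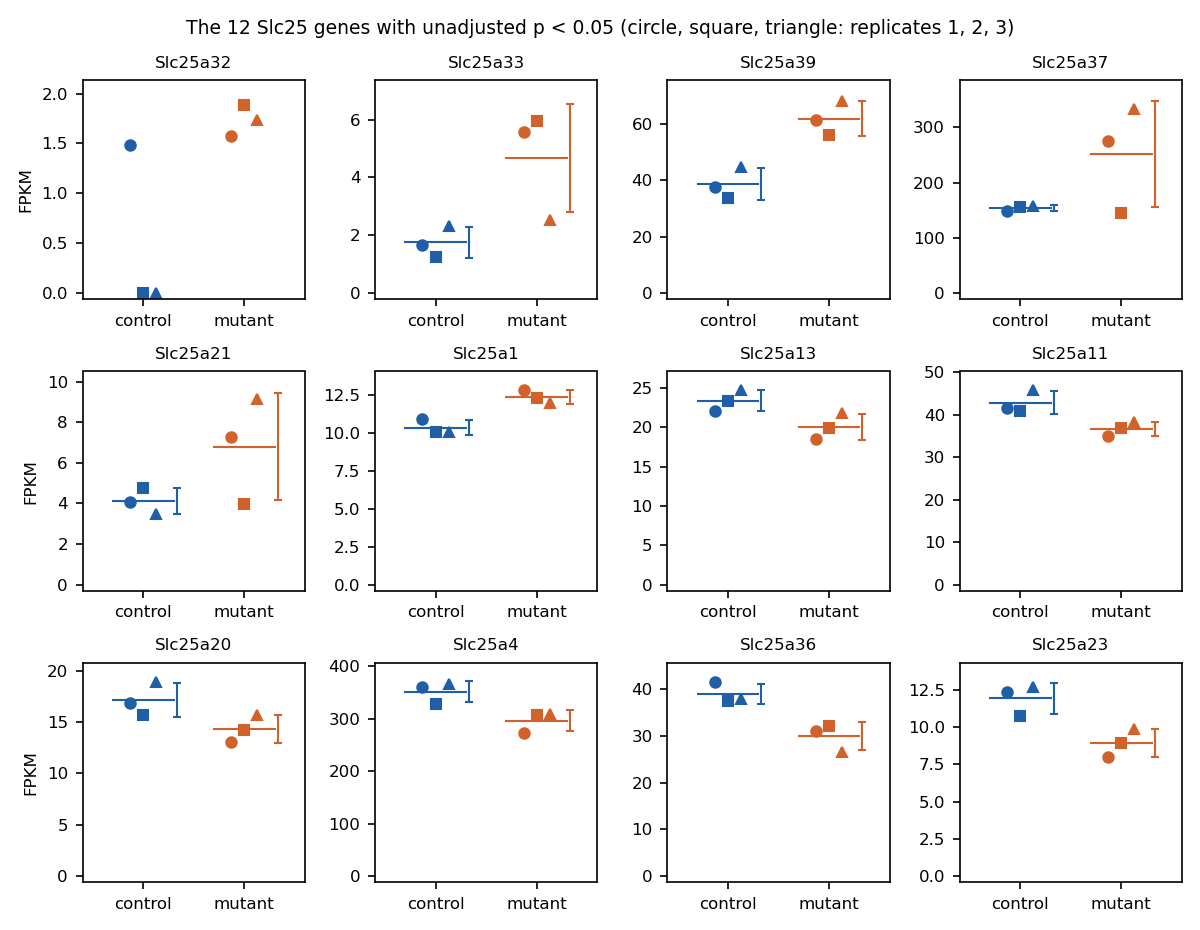
FPKM by library for the 12 Slc25 genes with an unadjusted p below 0.05, in order of log2 fold change (blue control, orange mutant; symbols for the replicates, lines for means, bars for SD, n = 3; no mean for Slc25a32). The 3 mutants are all above or all below the controls in every panel but those of Slc25a20, Slc25a37 and Slc25a21. Mutant replicate 2 is below every control for Slc25a37 and within the control range for Slc25a21.

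Most of these 12 calls were lost in at least 1 of the fits with a library left out, and such fits rest on fewer libraries. Slc25a33, Slc25a36, Slc25a23 and Slc25a39, 4 in all, stayed below the unadjusted line whichever library was left out. No member of the 12 changed sign in any of the 18 other settings in which it was tested. Slc25a32 and Slc25a33 were not tested with the filter of a mean of at least 5 FPKM. Slc25a1 lost its place below the line without control replicate 2, control replicate 3 or mutant replicate 1 (log2 fold change 0.21 to 0.27 over the 6 fits), and Slc25a4 without control replicate 1, control replicate 3 or mutant replicate 1 (-0.29 to -0.19). Slc25a11 (-0.25 to -0.17) and Slc25a20 (-0.31 to -0.17) lost it without control replicates 1 or 3 or mutant replicates 1 or 2, and Slc25a13 (-0.27 to -0.16) without control replicates 2 or 3 or mutant replicates 1 or 2. Slc25a37 (0.38 to 0.97) kept it in the fit without mutant replicate 2 alone, and Slc25a21 (0.34 to 0.85) in those without control replicate 2 or mutant replicate 2. Without control replicate 2, 3 members were higher, without control replicate 3, 2, and without mutant replicate 1, 3, against 6 with all libraries. Over all genes the higher calls in the same fits numbered 631, 500 and 547, against 739. Lower members numbered 3 without control replicate 1, 2 without control replicate 3 and 3 without mutant replicate 2, against 6, where those over all genes numbered 776, 1066 and 1295, against 1251. Without the library labelled mutant replicate 3 there were 4 higher and 8 lower, and over all genes 851 and 1169. Below the line in a fit with 1 library left out, though not with all, were Slc25a10 (-0.28) and Slc25a42 (-0.38) without mutant replicate 3, Slc25a27 (-0.45) and Slc25a40 (-0.28) without mutant replicate 1 and Slc25a38 (0.50) without mutant replicate 2. An adjusted p below 0.05 appeared once each for Slc25a37 without mutant replicate 2 (0.0252) and Slc25a33 without mutant replicate 3 (0.0075). Slc25a32 had one without control replicate 1 (0.0458), but the controls left there are both listed at 0, so that value supports no difference. With the red cell covariate 3 members were higher (Slc25a32, Slc25a33 and Slc25a39) and 2 lower (Slc25a23 and Slc25a36), and over all genes 667 were higher and 692 lower, against 739 and 1251 without it.

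For comparison, 33 other genes of mitochondrial transport were in the table (pyruvate, calcium, sideroflexin, ABC and porin genes, carnitine transferases and carriers under other symbols), of which 30 were tested. Of these 3 were higher and 1 lower at the unadjusted line, none at the adjusted one, and the median log2 fold change was -0.06. Over all genes tested, 5.57% were higher and 9.43% lower at the unadjusted line, 15% in all. Abcb6, a porphyrin transporter, stood at 5.85, 6.39 and 4.96 FPKM in the controls and 9.10, 7.54 and 11.8 in the mutants, without overlap (0.62, SE 0.16, adjusted p = 0.161). Abcb10, which supports heme synthesis, stood at 28.0, 32.5 and 27.6 FPKM in the controls and 45.1, 30.9 and 70.1 in the mutants (0.64, adjusted p = 0.292), with mutant replicate 2 again within the control range. The serine carrier Sfxn1 was at 11.5, 16.3 and 11.8 FPKM in the controls and 16.1, 17.5 and 16.2 in the mutants, with overlap (0.32, adjusted p = 0.301). Its relative Sfxn3 was at 7.32, 5.69 and 6.63 FPKM in the controls and 5.57, 5.29 and 4.67 in the mutants (-0.29, adjusted p = 0.301), with all mutants below all controls.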

How the data were processed

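RNA depleted of ribosomal RNA from pooled mouse hearts was sequenced as strand-specific libraries. The authors deposited 1 table of FPKM per annotated or assembled transcript (60776 transcripts), and the submitters' processing notes name HISAT2, Bowtie2 2.2.8, StringTie 1.3.1, Cuffdiff 2.1.1 and the mouse build mm9. The study's sequencing methods, with poly-T selection, are written for adult hearts. For these embryonic libraries the labels give ribosomal RNA depletion, and which step used which tool is not given in the sources used here. The table gives no counts, so read depth is unknown, and precision is judged from the spread between the 3 libraries of each group. P-values measure the spread between these pools of hearts.

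FPKM was summed per gene, and limma 3.58.1 (R 4.3.3; eBayes with trend) was fitted to log2(FPKM + 1) of all 13260 genes with at least 1 FPKM in at least 3 of 6 libraries, with Benjamini-Hochberg adjustment over all of them. Fold changes are on this log2(FPKM + 1) scale, which understates the change of low genes. Calls were counted at an unadjusted p below 0.05 and at an adjusted p below 0.05. The 3 paralog ratios were tested by exact two-sided permutation over libraries. The fit was tested on simulated data.

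Values in every library are given for members at an unadjusted p below 0.05, for non-overlapping members with a mean of at least 5 FPKM, and for 14 members of set roles, and other transporters are named at an unadjusted p below 0.05. The values of 1 tested member are not reported here, although the counts include it. The members, roles and lists were chosen with earlier results of these data known. Alternatives were other pseudocounts (0.1 and 5), filters, scalings, the most abundant transcript, no trend, a replicate block, a red cell covariate, transcript FPKM weighted by length and leaving out each library. Transcript lengths came from GENCODE M21, which held all 121 member transcripts, and promoters from RefSeq. The labels' build differs from that of these references, so only RefSeq promoters are given coordinates.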

Additional observations from a re-analysis of the deposited data

How the results depend on the processing

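At the unadjusted line the 6 higher members became 3 with a mean of at least 5 FPKM, which left fewer low genes, and 3 with the red cell covariate, and the 6 lower members became 2 with that covariate, while over all genes 739 higher became 667 and 1251 lower became 692. The other transporters, 3 higher and 1 lower, became 1 and 0 with the most abundant transcript alone, 1 and 0 with the covariate, and 0 were lower when libraries were scaled to the same sum without red cell markers; the cause was not tested. Leaving out 1 library gave 2 to 7 members higher, 2 to 8 lower and 0 to 1 adjusted, and 1 to 5 other transporters higher and 0 to 1 lower. The members' median, -0.04, ran from -0.09 to -0.03 in those fits. It was -0.11 with libraries scaled to the same FPKM sum, where the median of all genes moved from -0.02 to -0.09, and -0.02 when red cell markers were left out of that sum. The difference in the ratio of Slc25a4 to Slc25a5 ran from -0.30 to -0.15 when 1 library was left out, that of Slc25a12 to Slc25a13 from 0.01 to 0.10, and that of Slc25a37 to Slc25a28 from 0.31 to 0.96. With the most abundant transcript alone the ratio of Slc25a12 to Slc25a13 differed by 1.03, since Slc25a13 was assigned to another transcript in mutant replicate 3. No called member changed sign in any setting in which it was tested. Of the uncalled members, 15 changed sign in some setting, 1 of them at an unadjusted p below 0.05, Slc25a40 with the most abundant transcript alone (0.44). With libraries scaled to the same sum Slc25a15 gave -0.0221 and Slc25a28 -0.0334, and without red cell markers in that sum Slc25a5 gave 0.00795 and Slc25a17 0.0103. With the covariate Slc25a5 gave 0.0383, Slc25a22 0.0811, Slc25a17 0.0529, Slc25a38 -0.0573 and Slc25a24 0.0166. With 1 library left out the log2 fold change ran from -0.0782 to 0.0189 for Slc25a5, -0.128 to 0.0808 for Slc25a22, -0.0878 to 0.0217 for Slc25a30, -0.0667 to 0.0458 for Slc25a17, -0.0124 to 0.155 for Slc25a25, -0.183 to 0.0152 for Slc25a14 and -0.00473 to 0.0993 for Slc25a15. It ran from -0.180 to 0.0453 for Slc25a24, -0.0388 to 0.143 for Slc25a28, -0.0862 to 0.0692 for Slc25a51, -0.249 to 0.0579 for Slc25a47, -0.00802 to 0.181 for Slc25a44 and -0.123 to 0.0636 for Slc25a16.

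Same-numbered controls and mutants deviated together with correlations of 0.217, 0.110 and 0.0901, each the highest for its library, but nothing in the labels says what a number marks, so the numbers were not taken as pairs. With the replicate block 5 members were higher, 7 lower and 0 adjusted, and over all genes 763 were higher, 1458 lower and 4 adjusted, against 11 adjusted without it. That last count was 111 with libraries scaled to the same FPKM sum, 121 without mutant replicate 2 and 270 without mutant replicate 3.

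With 3 libraries a group and no read counts, the number of fragments behind low members such as Slc25a32 and Slc25a33 is unknown.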

Other observations

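Among carriers filed under other symbols, Ucp2, an uncoupling protein of the inner membrane, stood at 41.7, 38.2 and 48.5 FPKM in the controls and 74.4, 34.4 and 83.6 in mutant replicates 1 to 3. Mutant replicate 2 was thus below every control and the other mutants above, the order also seen for Slc25a37, and the gene did not pass (log2 fold change 0.48, limma adjusted p = 0.474). Tmem14c, a protoporphyrin transporter of red cell precursors, was at 79.5, 114 and 87.0 FPKM in the controls and 117, 98.8 and 182 in the mutants (0.47, limma adjusted p = 0.370). The part of the red cell markers, which took 23.5 and 22.1% of FPKM in mutant replicates 1 and 3, was not tested for these genes. Mtch1 and Mtch2, carrier relatives of the outer membrane, had mean levels of 76.5 and 21.8 FPKM in the controls and 71.0 and 20.4 in the mutants.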
